A study of Mus musculus with 2 samples.

Results

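Within dissociated mouse tumours, the cells described here were the 1015 keratin-positive tumour cells with the highest summed level of Dmp1, Slpi, Pla2g7, Id3 and Hes1, out of 10154 tumour cells and 21580 deposited barcodes. A barcode was kept at 500 or more detected genes and at most 10% mitochondrial UMIs (unique molecular identifiers, counted mRNA molecules). It was taken as a tumour cell at 4 or more UMIs of Krt8 plus Krt18 per 10000, at most 5 of Cdh5, Egfl7 plus Emcn, and at most 15 of Dcn plus Lum. Members were the top 10% of these cells, with both libraries pooled, by the sum of the 5 genes per 10000 UMIs. The other tumour cells of the same library were the comparison throughout.

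The study profiled tumour tissue of C57BL/6 mice by droplet 3′ single-cell RNA sequencing, with 1 library for each of 2 genotypes. The knockout library carried a floxed Myct1 allele together with a Cre transgene, spelled Cdh-cre Myct1 fl/fl in the genotype label and Cdh5-cre in the series title. The WT library had no such label. Tumours of 4 mice were pooled for each library and dissociated with collagenase II, dispase II and DNase. The sources used here do not give the tumour model, the age of the mice or any cell sorting. Cdh5 encodes the endothelial cadherin, so a driver from its promoter is an endothelial one, and the keratin-positive cells are not the cells in which it is known to be active. The source label of both samples is endothelial cells, whereas the cells described here were gated for keratins: Krt8 was detected in 98.4% of knockout members and 98.5% of WT members, against 11.7% and 4.37% of cells of an endothelial gate, which were shallower. Because there was 1 library per genotype and because the members were chosen on measured levels, no test was made. Intervals are exact 95% intervals that cover counting error only, and genotype, library and any batch cannot be told apart.

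Hes1 encodes a transcriptional repressor that is a classical target of Notch signalling, and Id3 encodes an inhibitor of DNA-binding helix-loop-helix factors that is a classical target of BMP signalling. Pla2g7 encodes the secreted enzyme that inactivates platelet-activating factor, and Slpi encodes a secreted inhibitor of leukocyte proteases found in epithelial fluids. Dmp1 encodes an acidic matrix protein of bone and dentin that belongs, with osteopontin (Spp1), to the family of small integrin-binding glycoproteins. Keratins 8 and 18 form the intermediate filaments of simple epithelia and of many carcinomas.

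In the GENCODE M21 annotation of GRCm38, the genome that mm10 names, Hes1 lies at chr16:30064384-30067796 on the plus strand and Id3 at chr4:136143497-136145755 on the plus strand. Pla2g7 lies at chr17:43568098-43612201 on the plus strand, Dmp1 at chr5:104202613-104214102 on the plus strand and Slpi at chr2:164354070-164389095 on the minus strand. RefSeq promoter windows of GRCm38.p6, from 250 bases before to 50 after a start, were matched for 4 of the 5 genes, and Hes1 was not matched. The window of Id3 is shown because it is the only matched window of the 2 regulators, Id3 and Hes1. The Dmp1 window whose start lies nearest the annotated gene start is shown beside it, because the presence of Dmp1 divided the members, as described further on; this second choice was made after values were seen. Capitals mark E-boxes (CANNTG), the sites of the helix-loop-helix factors that Id proteins inhibit.
Id3, chr4:136143572-136143871, plus strand: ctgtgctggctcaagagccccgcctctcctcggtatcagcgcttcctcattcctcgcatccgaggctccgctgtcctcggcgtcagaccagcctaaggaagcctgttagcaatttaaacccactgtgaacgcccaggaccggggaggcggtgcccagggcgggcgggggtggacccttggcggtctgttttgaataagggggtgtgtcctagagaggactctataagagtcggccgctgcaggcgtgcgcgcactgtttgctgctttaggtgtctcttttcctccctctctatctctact
Dmp1, chr5:104202367-104202666, plus strand: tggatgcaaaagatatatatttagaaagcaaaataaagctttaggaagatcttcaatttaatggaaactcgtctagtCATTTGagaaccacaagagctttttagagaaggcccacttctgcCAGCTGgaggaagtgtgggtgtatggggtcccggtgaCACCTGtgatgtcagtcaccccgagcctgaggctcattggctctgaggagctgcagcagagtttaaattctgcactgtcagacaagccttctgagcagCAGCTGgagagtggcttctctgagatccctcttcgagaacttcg
Searched on both strands, the Id3 window held no E-box, no GTGGGAA (the RBPJ motif of Notch signalling) and no GGCGCC (a SMAD motif of BMP signalling). The Dmp1 window held 4 E-boxes and neither of the other motifs, so no matches overlapped. An E-box was present in 72.3% of the 32851 promoter windows of the table, GTGGGAA in 6.38% and GGCGCC in 11.9%. A match describes letters and not a site in use.

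The knockout library held 145331950 UMIs over 10700 barcodes and the WT library 115519153 over 10880, and 9127 gene symbols were listed in both tables. Of 218 barcode sequences found in both libraries, 27 were among the tumour cells. Myct1, the targeted gene, was listed in the WT table alone, where cells of an endothelial gate had 964 UMIs (235 CPM, counts per 1000000 UMIs of the summed cells), the members 1 UMI and the other tumour cells 13. The members had too few UMIs to check the knockout label in them.

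Members made up 13.5% of the knockout tumour cells (881 of 6535, 12.7 to 14.3%) and 3.70% of the WT tumour cells (134 of 3619, 3.11 to 4.37%). The knockout share was 3.64 times the WT share (3.03 to 4.40), and this ratio came from 1 library on each side. The cut lay in a continuous range: the threshold was 14.1 per 10000 UMIs, the 50 cells just inside it spanned 14.1 to 14.7, the 50 just outside 13.6 to 14.1, and 380 cells lay within 2 of it. The median sum was 23.8 in knockout members and 23.4 in WT members, against 3.17 in other knockout and 1.45 in other WT tumour cells. Median depth was similar but not equal, at 14525 UMIs in knockout members against 17067 in the other knockout tumour cells. In WT it was 14660 in members against 15716 in the other tumour cells. The medians do not show a shallow cluster led by haemoglobin genes, from the clustering described further on. This cluster had a median of 5154 UMIs and a median sum of 0. It held 610 WT tumour cells (16.9%) and 95 knockout tumour cells (1.45%), of which 2 and 0 were members. Nearly all of it thus counted among the other tumour cells, most heavily in WT. Its removal is among the alternatives given at the end.

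**Figure D1:**
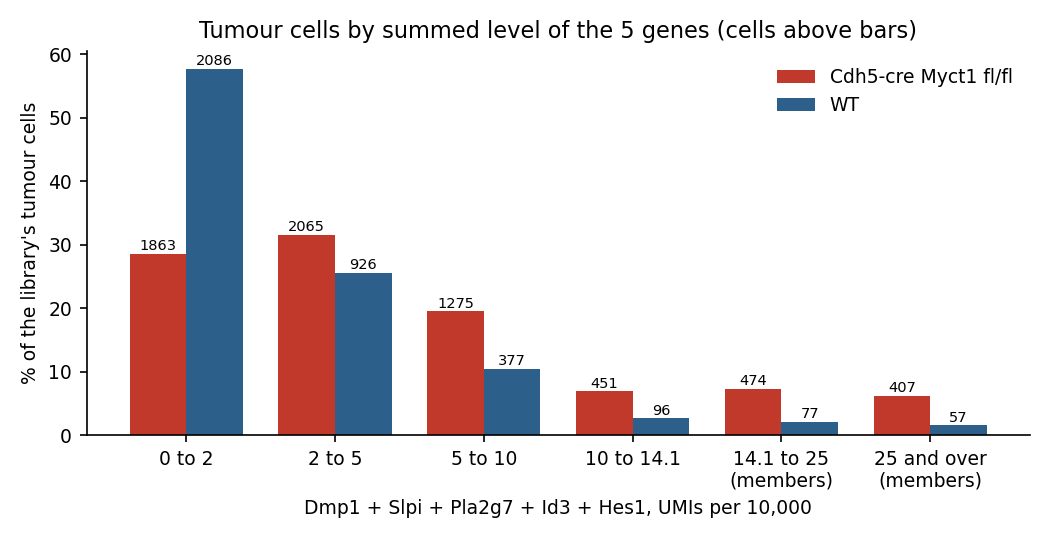
Share of each library's tumour cells (y axis, %) by the summed level of the 5 genes (x axis, UMIs per 10000), with the number of cells above each bar. In the knockout library 28.5% of tumour cells were under 2 per 10000, against 57.6% in WT, and the 2 highest bands hold the members.

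The name by Dmp1, Slpi and Id3 fits the members only in part, since the sum was carried by Hes1, Id3 and Pla2g7. Hes1 supplied 44.7% of the summed level in knockout members and 47.5% in WT members, Id3 33.5% and 32.7%, and Pla2g7 16.9% and 13.4%. Dmp1 supplied 3.84% in knockout and 5.75% in WT members, and Slpi 1.10% and 0.597%. Of the 881 knockout members 851, and of the 134 WT members 125, would also have been in the top 10% by Pla2g7, Id3 and Hes1 alone. A member held UMIs of a median of 3 of the 5 genes in each library, and 18 knockout and 6 WT members held all 5. They are called the Hes1, Id3 and Pla2g7-high tumour cells below, or members.

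The levels of the 5 genes follow from the choice and are given as a description. Hes1 stood at 1401 CPM in knockout members against 185 CPM in other knockout tumour cells, and at 1175 CPM in WT members against 131 CPM. Id3 stood at 964 CPM against 105 CPM in the knockout library and at 852 CPM against 61.9 CPM in WT. Pla2g7 stood at 472 CPM against 113 CPM in the knockout library and at 336 CPM against 63.9 CPM in WT. These 3 genes were detected in most members, between 82.1% and 95.2% of them in either library. Hes1 and Id3 were not particular to tumour cells: cells of the endothelial gate had 983 CPM of Hes1 and 469 CPM of Id3 in the knockout library, and 925 CPM and 549 CPM in WT. Pla2g7 was low there, at 10.3 CPM in knockout and 2.44 CPM in WT endothelial-gate cells.

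Dmp1 and Slpi were restricted to a minority of members. Dmp1 was detected in 24.2% of knockout members (21.4 to 27.1%) against 2.79% of the other tumour cells, and in 27.6% of WT members (20.2 to 36.0%) against 1.43%. In endothelial-gate cells, which should lack it, Dmp1 was found in 0.949% of knockout cells (median 7377 UMIs per cell) and 0.546% of WT cells (6374 UMIs), which were thus shallower than the members. After every cell was thinned to 5000 UMIs, with shallower cells left out, Dmp1 was detected in 15.1% of 835 knockout members against 1.39% of 5397 others, and in 23.6% of 123 WT members against 0.590% of 3050. Slpi was detected in 7.15% of knockout members and 7.46% of WT members, against 0.937% and 0.402% of the others. In endothelial-gate cells it was found in 0.633% of 316 knockout cells and in 0 of 549 WT cells, with an exact upper bound of 0.670%. Slpi was not particular to tumour cells: it was found in 7.79% of 77 knockout and 1.68% of 2623 WT fibroblast-gate cells. Its level there was 270 CPM in the knockout library, where 167 of 261 UMIs came from 1 cell, and 4.18 CPM in WT. Knockout members had 35.4 CPM and WT members 9.11 CPM. A knockout cell held 240 of the 487 Slpi UMIs of the knockout members, and the 134 WT members held 19 in all.

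To see whether the 5 genes went together, cells were chosen on 4 of the genes and the fifth was measured. The 5 genes had been picked together from these data, so the ratios are a description. In cells chosen on the other 4 genes, Hes1 stood at 1019 CPM against 241 CPM in the remaining knockout tumour cells and at 686 CPM against 150 CPM in WT. The log2 ratio was 2.08 (2.05 to 2.11) in the knockout library and 2.20 (2.11 to 2.28) in WT. Id3 had log2 ratios of 2.38 (2.34 to 2.42) in the knockout library and 2.51 (2.40 to 2.61) in WT, and Pla2g7 stood at 390 CPM against 123 CPM and at 264 CPM against 65.9 CPM. These genes were each higher in cells picked without them, in both libraries. Dmp1 stood at 62.9 CPM against 7.89 CPM in the knockout library, a log2 ratio of 2.99 (2.86 to 3.13), and at 114 CPM against 3.51 CPM in WT, a log2 ratio of 5.03 (4.75 to 5.31). The WT value was 4.45 without the cell that held 78 of its UMIs. Slpi had log2 ratios of 3.97 (3.72 to 4.23) in the knockout library, 2.62 without its highest cell, and 2.84 (1.51 to 4.00) in WT, where it rested on 8 UMIs in the chosen cells. All 10 ratios exceeded the 1.5-fold size used for counting.

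**Figure D2:**
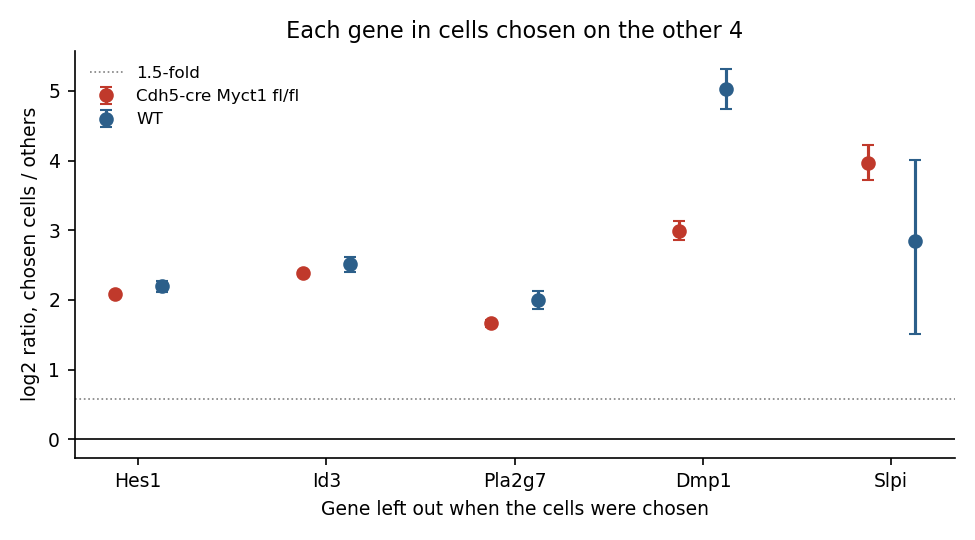
Log2 ratio (y axis) of each gene between cells chosen on the other 4 genes and the remaining tumour cells, by the gene left out (x axis); bars are 95% counting intervals and the dotted line marks 1.5-fold. All 10 ratios lie above the line, and the interval of Slpi in WT, 1.51 to 4.00, is the widest.

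Outside the 5 genes, members had higher levels of Pdgfrb, Col6a1, Col6a2 and Mgp and lower levels of Btc, Mthfd2, Psat1 and Dynap. Of 2451 genes with at least 50 CPM in members or others of each library, 162 (6.61%) were at least 1.5-fold higher in members in both libraries and 47 (1.92%) were at least 1.5-fold lower in both. No gene was past 1.5-fold in opposite directions. With each library considered singly, and the genes shared by both included, 169 were higher and 61 lower in the knockout library, and 375 were higher and 161 lower in the smaller WT group. At 2-fold in both libraries the counts were 59 and 14.

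Pdgfrb, the receptor tyrosine kinase for platelet-derived growth factor BB, stood at 63.8 CPM in knockout members against 7.11 CPM in the other tumour cells, and at 118 CPM in WT members against 10.9 CPM. The log2 ratios were 3.16 (3.02 to 3.31) in the knockout library and 3.45 (3.23 to 3.66) in WT. Col6a1 and Col6a2 encode chains of collagen VI, a microfibrillar matrix collagen. Col6a1 stood at 297 CPM in knockout members against 45.6 CPM, and at 390 CPM in WT members against 57.5 CPM, with log2 ratios of 2.70 and 2.76. Col6a2 stood at 101 CPM against 10.2 CPM in the knockout library and at 163 CPM against 22.7 CPM in WT. Pdgfrb and both collagen VI chains were therefore over 6-fold higher in members of either library.

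Mgp, the matrix Gla protein that inhibits calcification, stood at 330.4 CPM in knockout members against 71.9 CPM, and at 659.6 CPM in WT members against 97.9 CPM. In WT a single member held 16.3% of its UMIs, and the log2 ratio was 2.75 with that cell and 2.51 without it. Sparcl1, a secreted matricellular protein, had log2 ratios of 2.72 in the knockout library and 4.05 in WT. The WT ratio was 3.88 without the cell that held 12.7% of its member UMIs. Serpinf1, which encodes the anti-angiogenic pigment epithelium-derived factor, had 2.16 and 2.33, and Timp3, an inhibitor of metalloproteinases, had 2.30 in each. For Timp3 a single knockout member held 18.2% of the knockout member UMIs, and the knockout ratio was 2.01 without that cell. These 4 genes encode secreted proteins and were all past 2-fold in both libraries. Cp, the copper-carrying ferroxidase ceruloplasmin, had log2 ratios of 2.04 in the knockout library and 2.86 in WT. Sema5a, a transmembrane semaphorin, had 1.90 and 2.73, and Jup, the junction protein plakoglobin, had 1.87 and 2.44. Nr4a1, an early-response nuclear receptor, and Btg2, an antiproliferative early-response gene, were also among the 12 largest, with 1.94 and 1.95 in the knockout library and 2.79 and 2.60 in WT.

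The 12 genes named as lower in members included several metabolic enzymes, which were not counted as a group. Psat1 and Psph, enzymes of serine synthesis, stood at 48.1 CPM and 44.7 CPM in knockout members against 100.8 CPM and 100.4 CPM in the others, and at 42.2 CPM and 22.5 CPM in WT members against 138 CPM and 79.7 CPM. Mthfd2, a mitochondrial enzyme of folate metabolism, stood at 46.2 CPM against 111 CPM in the knockout library and at 39.8 CPM against 124 CPM in WT. Asns, asparagine synthetase, had log2 ratios of -1.01 in the knockout library and -1.29 in WT, and Cth, the enzyme that releases cysteine from cystathionine, -1.06 and -1.78. Btc, the epidermal growth factor receptor ligand betacellulin, had log2 ratios of -1.47 (-1.60 to -1.35) and -2.50 (-2.90 to -2.12). Dynap had -1.11 and -1.48, Upp1, a uridine phosphorylase, -1.03 and -1.86, and Rbp2, a retinol-binding protein, -1.19 and -2.32. Nefl, the light neurofilament chain, had -1.35 and -1.72, and Ggct, a cyclotransferase of the glutathione cycle, -1.23 and -1.64. Prl2c3, of the proliferin genes, had -2.09 and -2.48. It belongs to a family of near-identical copies whose reads may be split between them, and in WT 33 of its 59 member UMIs came from 1 cell.

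**Figure D3:**
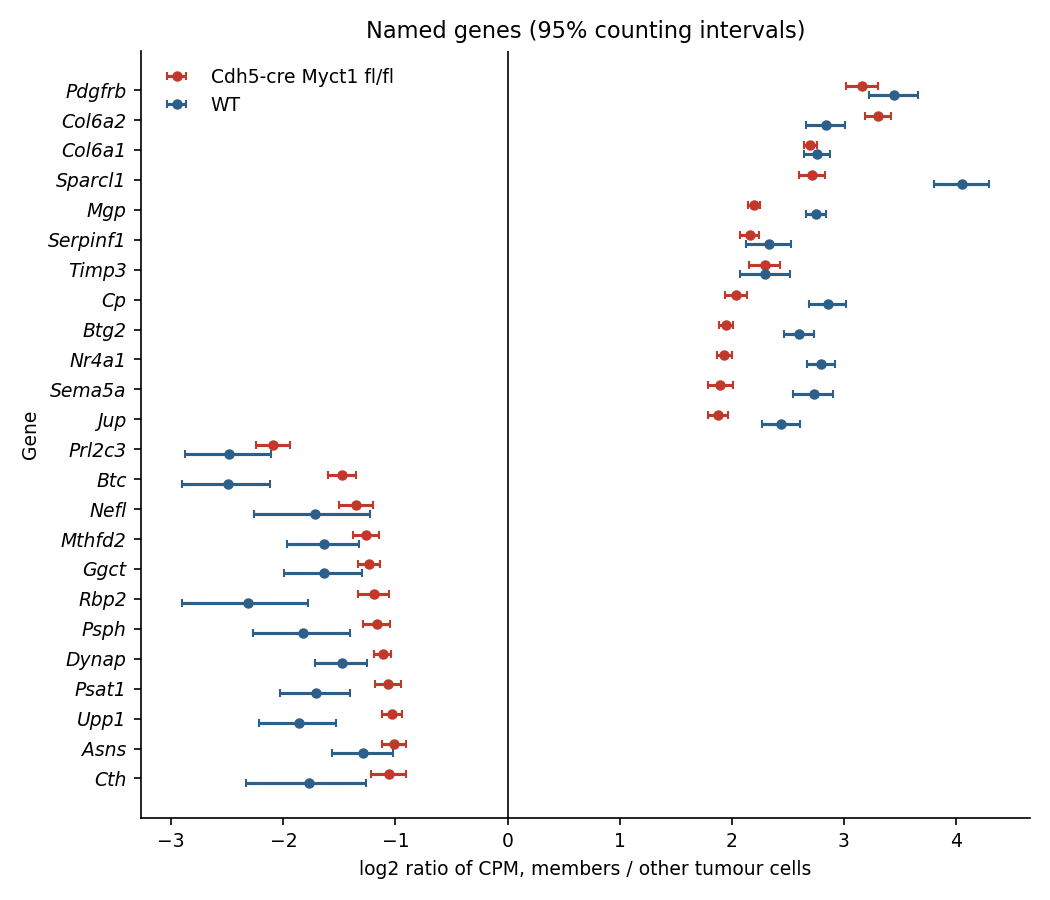
Log2 ratio of CPM between members and other tumour cells (x axis) for the 12 genes named in each direction (y axis), in the knockout and the WT library, with 95% counting intervals. The 12 upper genes lie between 1.87 and 4.05 and the 12 lower genes between -2.50 and -1.01.

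Gene lists were read against all 8616 measured genes, those with at least 20 UMIs in each library, of which 776 (9.01%) were at least 1.5-fold higher in members in both libraries and 248 (2.88%) lower. The median log2 ratio of all measured genes was 0.02 in the knockout library and 0.16 in WT, so WT values sit on a slightly raised base. Genes that ran against the direction of their list (Id4, Bmp7, Jag1, Dll1, Ddit4 and Il24), and Id1, Id2, Runx2, Col1a1 and Col1a2, were named after their values were seen. The lists of the pathways to which Hes1 and Id3 belong come first.

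Of 31 measured BMP, TGF-beta and Id genes, 10 were higher in both libraries and 2 lower (Id4 and Bmp7), with median log2 ratios of 0.30 and 0.54. The ligand gene Tgfb3 stood at 36.2 CPM in knockout members against 14.6 CPM, and at 58.5 CPM in WT members against 14.2 CPM. Nbl1, a secreted BMP antagonist, stood at 57.5 CPM against 20.3 CPM and at 128 CPM against 29.3 CPM. Tgfb2 and Bmp4, also ligands, had the largest ratios of the list, but no value above 7.67 CPM. Of the relatives of Id3, Id1 had log2 ratios of 1.22 (1.06 to 1.39) in the knockout library and 1.70 (1.34 to 2.04) in WT, whereas Id2 had 0.56 and 0.33, under 1.5-fold.

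Of 22 measured Notch genes other than Hes1, 6 were higher and 2 lower in both libraries, with medians of 0.31 and 0.32. The receptors Notch1, Notch2 and Notch3 were all among the higher ones: Notch2 stood at 68.9 CPM in knockout members against 35.9 CPM, and at 115 CPM in WT members against 40.3 CPM. Notch1 stood at 35.4 CPM against 14.5 CPM in the knockout library and at 49.9 CPM against 15.5 CPM in WT. The target gene Hey1 had the largest ratio, at 4.79 CPM against 0.578 CPM in the knockout library and 7.19 CPM against 0.450 CPM in WT, levels near the limit of detection. The 2 lower genes were both ligands, Jag1 and Dll1, and Dll1 had no UMI in WT members. Jag1 stood at 72.0 CPM in knockout members against 122 CPM, and at 52.3 CPM in WT members against 192 CPM, so the receptors were higher and this ligand lower in the same cells.

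Of 17 measured genes of mineralised tissue other than Dmp1, 5 were higher and 2 lower in both libraries. Spp1, the osteopontin gene, stood at 3830 CPM in knockout members against 1669 CPM, and at 2908 CPM in WT members against 898 CPM. Spp1 was not particular to tumour cells: fibroblast-gate cells had 5494 CPM in the knockout library and 1191 CPM in WT. Sparc, which encodes the collagen-binding osteonectin, stood at 413 CPM against 194 CPM and at 575 CPM against 183 CPM. Runx2, the transcription factor of osteoblast commitment, had log2 ratios of 0.02 and -0.16, and the bone collagen genes Col1a1 and Col1a2 were no higher in members than in others of either library. Slc20a1, a phosphate transporter gene, had 0.77 and 0.95. The list median was 0.28 in the knockout library and 0.48 in WT, with Mgp also on the list. The WT median ran from 0.020 among cells without cycling UMIs to 0.87 under a stricter gate, and the knockout median from 0.24 to 0.71.

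Secreted protease inhibitors and defence genes, the functional group of Slpi, had 11 of 25 higher and 1 lower, with medians of 0.62 and 0.86. Cst3, the cystatin C gene, stood at 990 CPM in knockout members against 427 CPM and at 1014 CPM in WT members against 311 CPM. Of 25 phospholipase and platelet-activating factor genes other than Pla2g7, 5 were higher and 0 lower. Enpp2, which encodes the lysophospholipase autotaxin, was the largest of them, at 17.7 CPM against 2.26 CPM in the knockout library and 29.7 CPM against 2.67 CPM in WT. Matrix and adhesion genes had 13 of 31 higher and 3 lower, with Thbs2, a thrombospondin, at log2 ratios of 1.53 and 1.97.

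Immediate early genes formed the list with the largest share, 18 of 30 higher and 0 lower, with medians of 0.75 in the knockout library and 1.02 in WT. Zfp36, which encodes an RNA-destabilising protein, stood at 293 CPM in knockout members against 113 CPM and at 560 CPM in WT members against 130 CPM. Dusp1, a phosphatase of MAP kinases, stood at 208 CPM against 81.3 CPM and at 290.5 CPM against 98.9 CPM. These genes are known to respond within minutes, also to enzymatic dissociation of tissue, and Hes1 and Id3 are themselves rapidly induced. The part of dissociation in the member levels was not tested. Without the 20% of tumour cells highest in this list, 812 members were chosen anew among the remaining 8123 cells. They are in part other cells than the members described here. In that comparison 79 of 2360 genes were higher and 15 lower in both libraries, and all 10 ratios of the left-out rule genes stayed past 1.5-fold.

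MHC class I and peptide loading genes had 7 of 16 higher and 0 lower, with medians of 0.58 and 1.09, among them the immunoproteasome subunit Psmb8 at 93.9 CPM in knockout members against 43.7 CPM and 70.5 CPM in WT members against 13.7 CPM. Interferon response genes had 6 of 27 higher and 0 lower, with medians of 0.45 and 0.42. Cytokine and NF-kB genes had 8 of 25 higher and 2 lower, led by the adhesion molecule Vcam1 (31.0 CPM against 6.80 CPM in the knockout library, 50.8 CPM against 6.41 CPM in WT) and the chemokine Ccl2 (88.7 CPM against 18.9 CPM, and 56.1 CPM against 16.9 CPM).

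Hypoxia and stress genes went the other way. Of 32 hypoxia and glycolysis genes, 1 was higher (Ddit4) and 5 lower in both libraries. With each library considered singly, 5 were lower in the knockout library, where 6.16% of all measured genes were, and 23 in WT, where 8.11% were, with medians of -0.23 in the knockout library and -0.82 in WT. Ero1l, an endoplasmic reticulum oxidase, stood at 234 CPM in knockout members against 374 CPM, and at 136 CPM in WT members against 790.4 CPM. Bnip3, a mitophagy receptor, stood at 88.4 CPM against 155 CPM and at 48.4 CPM against 230.3 CPM. Of 32 integrated stress and unfolded protein response genes, 0 were higher and 6 lower, with medians of -0.18 and -0.34, and Asns, Mthfd2 and Psat1 were among the 6.

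Cell cycle genes were lower in knockout members, while the WT medians lay near 0. Of 32 G2/M genes, 28 were at least 1.5-fold lower in knockout members, against 6.16% of all measured genes, with a median log2 ratio of -1.24. In WT members 5 of the 32 were higher, where 21.7% of all measured genes were, and 2 lower, where 8.11% were. Their WT median log2 ratio was 0.13. Of 33 S phase genes, 21 were lower in knockout members, with a median of -0.78. In WT members 3 were lower, with a median of 0.04, beside the same 8.11% of all measured genes. The sign of both WT medians changed under other settings, including median-of-ratios scaling (-0.035 for G2/M and -0.13 for S phase), while the knockout medians ran from -1.48 to -0.20 for G2/M and from -1.13 to -0.11 for S phase over 17 alternatives, the values nearest 0 being those among cells without a UMI of 5 cycling genes. At 5000 UMIs per cell, 19.6% of knockout members against 32.8% of the others had a UMI of Top2a, Mki67, Cdk1, Ube2c or Birc5, and 25.2% of WT members against 25.7% of the others. Without thinning the shares were 42.3% against 55.2% in the knockout library and 40.3% against 44.1% in WT. Whether the 2 libraries differ here was not tested.

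**Figure D4:**
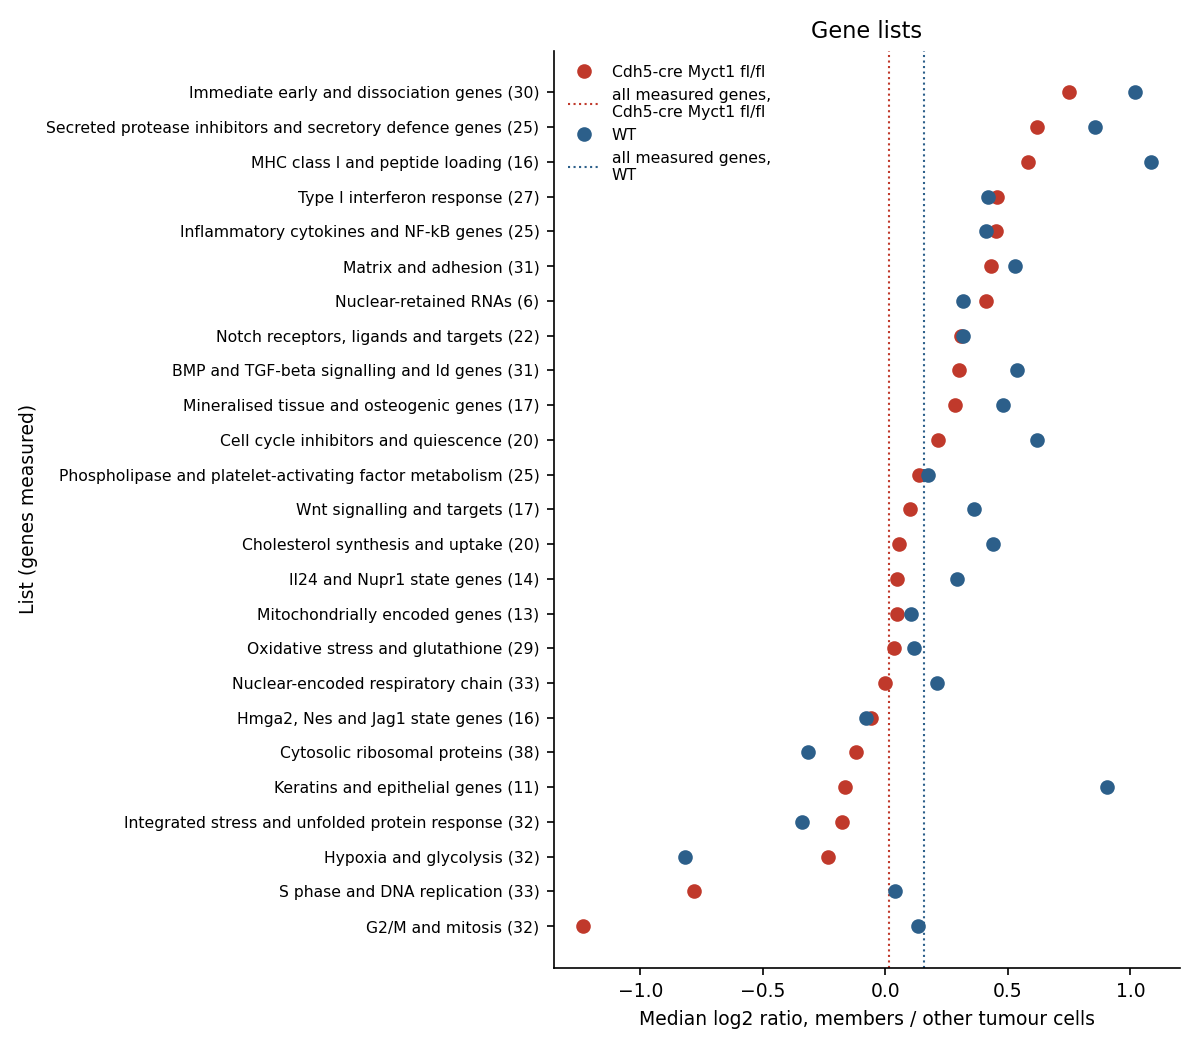
Median log2 ratio of members over other tumour cells (x axis) for each gene list (y axis, with the number of genes measured) in the knockout and the WT library; dotted lines give the median of all measured genes. Immediate early genes lie highest in the knockout library, at 0.75, and G2/M genes lowest, at -1.24, where the WT point lies at 0.13.

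Of the remaining lists, cell cycle inhibitors had 5 of 20 higher and 0 lower, Wnt genes 2 of 17 and 0, oxidative stress genes 3 of 29 and 0, cholesterol genes 1 of 20 and 0, and keratins and epithelial genes 2 of 11 and 0 (Jup and Epcam). The median log2 ratio of the cell cycle inhibitors was 0.21 in the knockout library and 0.62 in WT. The knockout value of Epcam, an epithelial adhesion molecule, rested on 4 member UMIs, with a log2 ratio of 0.59 that was 0.18 without 1 cell. The genes of the Hmga2, Nes and Jag1 state had 3 of 16 higher and 2 lower, and those of the Il24 and Nupr1 state 1 of 14 and 1. In that last list the 2 lead genes parted: Nupr1 was higher, at 2477 CPM in knockout members against 1373 CPM and at 1900.2 CPM in WT members against 762 CPM, and Il24 was lower, at 63.1 CPM against 125 CPM and at 10.1 CPM against 108 CPM. Ribosomal protein genes (38), respiratory chain genes (33), mitochondrially encoded genes (13) and nuclear-retained RNAs (6) had 0 genes past 1.5-fold in both libraries.

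Markers of most other cell types were low in members, but the mural and fibroblast sums were above those of the other tumour cells. The summed level of 10 endothelial markers was 23.5 CPM in knockout members against 19.3 CPM, and 32.6 CPM in WT members against 20.7 CPM, with Tie1 at 0 in the members of each library. The 10 mural markers summed to 127 CPM against 26.3 CPM in the knockout library and to 216 CPM against 38.4 CPM in WT, and Pdgfrb made up 63.8 CPM and 118 CPM of the member sums. Besides Pdgfrb, the markers Rgs5, Notch3, Cspg4, Abcc9, Higd1b, Acta2 and Mcam were higher in members of both libraries. Notch3, also on the Notch list, had log2 ratios of 1.92 in the knockout library and 1.70 in WT, and Mcam 1.83 and 2.17. Kcnj8 was lower in knockout members, and Myh11 had no UMI in WT members. Rgs5, a defining mural marker, was found in 2.04% of knockout members against 5.24% of the others and in 4.48% of WT members against 4.65%, while its level was 13.7 CPM against 5.89 CPM and 39.8 CPM against 6.67 CPM. With every tumour cell that held a UMI of Rgs5, Higd1b, Kcnj8, Abcc9, Cspg4, Acta2 or Myh11 left out, members were chosen anew. This gave 936 members among 9361 cells. Pdgfrb then had log2 ratios of 3.36 in the knockout library and 3.44 in WT, against 3.16 and 3.45 with all cells. Col6a1 had 2.75 and 2.92, against 2.70 and 2.76. The 7 genes include no fibroblast marker, and a cell without their UMIs can still hold RNA of other cells. The source of Pdgfrb and Col6a1 was not tested.

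The 10 fibroblast markers summed to 349 CPM in knockout members against 84.5 CPM, and to 657 CPM in WT members against 385 CPM. Col3a1, a fibrillar collagen gene, made up 287 CPM and 438 CPM of the member sums, whereas Col1a2 stood at 10.1 CPM in knockout members against 15.3 CPM and at 18.7 CPM in WT members against 87.6 CPM. Pdgfra and Postn were also higher in members of both libraries, with log2 ratios of 1.78 and 1.36, and of 1.39 and 1.51. Col1a1, Lum and Dpt were lower in both, and Dcn, Mfap5 and Pi16 were higher in knockout members and lower in WT members. S100b, a Schwann cell marker, stood at 18.9 CPM against 3.59 CPM in the knockout library and at 36.0 CPM against 4.32 CPM in WT, and Sox10, another such marker, was listed in neither table. The 10 macrophage markers summed to 8.06 CPM in knockout members against 9.74 CPM, and to 8.63 CPM in WT members against 12.3 CPM. Of them 2 had no UMI in knockout members and 9 in WT members, counting Adgre1, which neither table lists, and Cd68 led with 6.61 CPM and 8.63 CPM. The 6 neutrophil markers summed to at most 1.92 CPM, the 7 lymphocyte markers, of which 2 were listed in a table, to 0, the 5 erythrocyte markers to at most 1.92 CPM and the 7 salivary markers to at most 1.44 CPM in members. The 5 skeletal muscle markers were listed in neither table. Lymphatic endothelial markers (16.3 CPM and 23.01 CPM in knockout and WT members) consisted mainly of Pdpn, and mesothelial markers (24.6 CPM and 59.0 CPM) mainly of Msln. The 6 normal epithelial markers summed to 64.7 CPM in WT members against 8.74 CPM in the other WT cells, and to 4.36 CPM against 3.21 CPM in the knockout library. The part of other cells in the member levels was not tested beyond these values.

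Clustering of the tumour cells without the 5 rule genes spread the members over several of 12 clusters. The cluster led by Col6a2, Col6a1, Serpinf1, Col3a1 and Mgp held 483 of the 881 knockout members (54.8%) and 50 of the 134 WT members (37.3%). Of its own cells, 62.3% in the knockout library and 51.5% in WT were members. It made up 11.9% of knockout tumour cells and 2.68% of WT tumour cells. A second place held only WT members: the cluster led by Timp3, Hbb-bs and Msln, with 244 WT cells and 2 knockout cells, held 39 of the 134 WT members. The interferon cluster led by Rsad2 and Ifit3 held 104 knockout and 7 WT members, and the cluster led by Mgst3 and Eno3, which has 1493 knockout cells and 11 WT cells, held 110 knockout and 0 WT members. A low-depth cluster led by Ly6d, Krt19 and Lcn2 had a median of 2415 UMIs. Members were 23 of its 149 knockout cells and 12 of its 80 WT cells. With both libraries pooled, it had the highest Slpi, Pdgfrb and Col6a1 of the 12 clusters. These stood at 130 CPM, 119 CPM and 649 CPM, against 21.8 CPM, 90.0 CPM and 387 CPM in the cluster led by Col6a2. Dmp1, Pla2g7, Id3, Hes1, Mgp and Spp1 were lower in it than in the cluster led by Col6a2. The latter is called the collagen VI cluster below, for its leading genes.

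Members outside the collagen VI cluster also differed from the other tumour cells outside it in the named genes, which had been picked for their difference over all members. Pdgfrb stood at 24.3 CPM in knockout members outside the cluster against 5.03 CPM in the other tumour cells outside it, and at 80.8 CPM against 9.18 CPM in WT. Mgp stood at 152 CPM against 59.4 CPM in the knockout library and at 561 CPM against 88.7 CPM in WT. Inside the cluster the differences were smaller for Pdgfrb, at 102 CPM in knockout members against 51.5 CPM in the non-members, and at 181 CPM in WT members against 118 CPM. The direction was not the same there for every named gene: Timp3 stood at 68.0 CPM in knockout members against 79.4 CPM, and Prl2c3 at 15.3 CPM in WT members against 11.7 CPM.

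The members with a Dmp1 UMI formed the more matrix-rich part of the group. Of 213 knockout members with Dmp1, 80.3% lay in the collagen VI cluster, against 46.7% of the 668 without it. In WT 59.5% of the 37 with Dmp1 lay there, against 28.9% of the 97 without. Spp1 stood at 7773 CPM in knockout members with Dmp1 against 2574 CPM in those without, and at 6962 CPM against 1095 CPM in WT. Pdgfrb stood at 136 CPM against 40.6 CPM in the knockout library and at 197 CPM against 83.2 CPM in WT, and Mgp at 679 CPM against 219 CPM and at 1126 CPM against 451 CPM. Hes1 differed little, at 1287 CPM against 1437 CPM in the knockout library and 1074 CPM against 1220.3 CPM in WT. Krt8 had log2 ratios of 0.01 (-0.06 to 0.08) and 0.06 (-0.09 to 0.20), and median depth was 14293 against 14606 UMIs in the knockout library and 15540 against 14535 in WT.

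Pdgfrb differed along the whole range of the sum and not at the threshold alone. Pdgfrb in the knockout library was 2.19 CPM in cells under 2 per 10000, 4.64 CPM from 2 to 5, 13.0 CPM from 5 to 10, 22.6 CPM from 10 to the threshold, 46.0 CPM from there to 25 and 87.5 CPM above 25. In WT the values in the same order were 3.17 CPM, 12.8 CPM, 26.8 CPM, 68.0 CPM, 114 CPM and 126 CPM. Each step was higher than the one below it in both libraries. Mthfd2 ran the other way: in the knockout library it was 122 CPM in the lowest band and 33.6 CPM in the highest, and in WT it was 139 CPM in the lowest band, 39.7 CPM in the first member band and 39.9 CPM in the highest. Dynap ended at 73.1 CPM in knockout and 53.2 CPM in WT cells above 25, against 216 CPM and 205 CPM in cells under 2. Median depth in the highest band was 13826 UMIs in the knockout library and 13870 in WT, against 16170 and 14499 in the lowest.

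**Figure D5:**
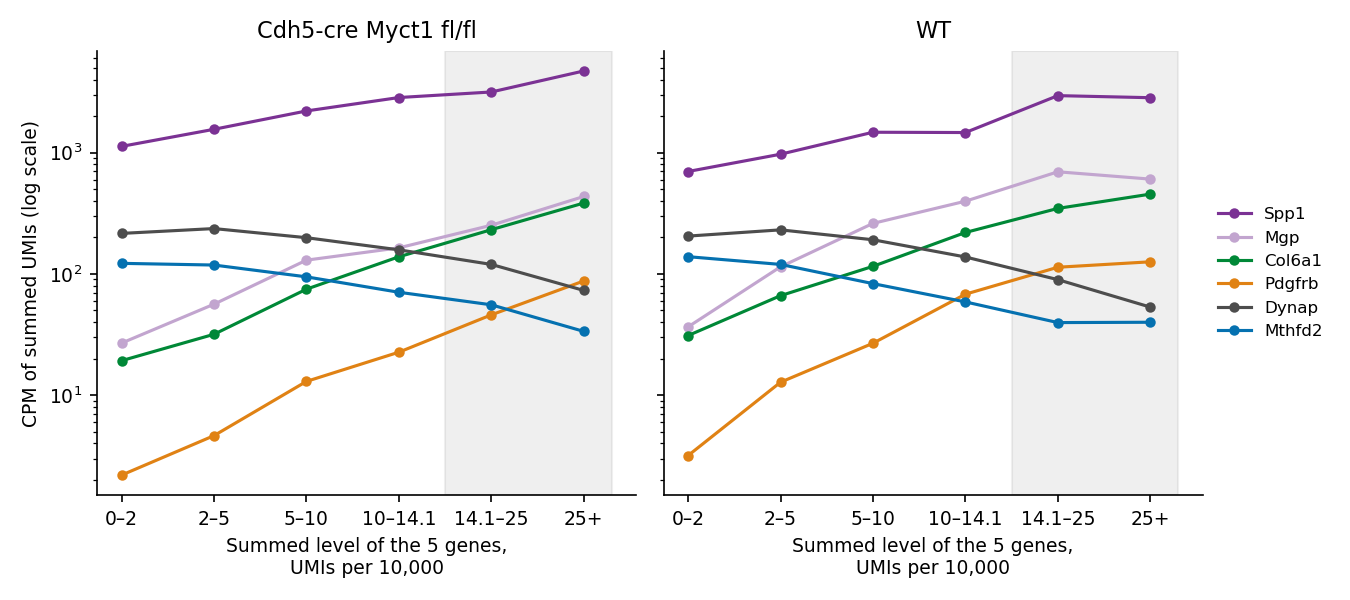
CPM of summed UMIs on a log axis (y) for 6 genes by band of the summed level of the 5 genes (x, UMIs per 10000), knockout library on the left and WT on the right; the shaded bands are members. Pdgfrb spans 2.19 to 87.5 CPM in the knockout library and 3.17 to 126 CPM in WT, while Mthfd2 and Dynap are lowest among the members.

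Members overlapped unevenly with other expression states, each taken as the top 10% of tumour cells for its list. Of knockout members 35.5% (32.4 to 38.8%) and of WT members 42.5% (34.0 to 51.4%) were in the top 10% for immediate early genes, against 6.92% and 7.29% of the others. For Il24 plus Nupr1 the shares were 28.4% of knockout and 18.7% of WT members, against 11.2% and 3.07% of the others. In members the level of Nupr1 was far above that of Il24, and Il24 itself was lower in members than in the others, as given above. For hypoxia genes they were 4.77% and 1.49%, against 9.94% and 11.7%. The member share was above that of the others for the early-response state and below it for the hypoxic state in both libraries, with no test made. For Hmga2, Nes and Jag1 the shares were 5.22% of knockout members against 6.58%, and 25.4% of WT members against 16.2%.

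The knockout and WT members were compared last. They lay in part in different clusters: the cluster led by Timp3, Hbb-bs and Msln, with Tsc22d3 and Ctla2a also among its leading genes, held 39 of the 134 WT members and 0 knockout members, and the collagen VI cluster 54.8% of knockout and 37.3% of WT members. The part of this difference in the values was not tested. Genes were taken at 100 CPM or more in the members of at least 1 library. A gene could thus enter through the members in which it was high, also through a few cells of the smaller WT group. Of 1507 such genes, 9 (0.597%) were at least 2-fold higher in knockout members and 43 (2.85%) at least 2-fold lower. In the other tumour cells the counts were 7 and 10. These were taken on the same genes, picked by their level in members, so the 2 pairs of counts are not a like contrast. The chemokine Cxcl10 stood at 131 CPM in knockout members against 18.7 CPM in WT members, and at 77.4 CPM against 10.4 CPM in the other tumour cells. Isg15, an interferon-induced ubiquitin-like protein gene, stood at 176 CPM against 61.4 CPM in members and at 123 CPM against 33.1 CPM in the others. Both genes were higher in the knockout library in members and in the other tumour cells alike. Ier3, an early-response gene, had log2 ratios of 1.44 in members and 1.31 in the others, and Ctsl, a lysosomal protease gene, 1.03 and 0.82. Pgk1, a glycolytic enzyme gene, had 1.70 (1.36 to 2.06) in members and 0.65 (0.61 to 0.70) in the others, and the heat shock gene Hspb1 had 1.25 and 0.63.

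Several genes lower in knockout members rested on a few WT cells. Krt19, a simple epithelial keratin, stood at 0.363 CPM in knockout members against 108 CPM in WT members, but 122 of its 226 WT UMIs came from 1 cell and 5 WT members held any. AW112010 and Sprr2a3 likewise had 186 of 294 and 129 of 211 WT UMIs in 1 cell. Ctla2a stood at 276 CPM in knockout members against 971 CPM in WT members, of which 547 of 2025 UMIs came from 1 cell, leaving 721 CPM without it. More evenly spread, Tsc22d3, a glucocorticoid-induced gene, stood at 33.8 CPM against 112 CPM and was found in 73 of the 134 WT members. Postn, the matricellular periostin gene, stood at 23.8 CPM against 127 CPM and was not evenly spread. Of its 265 UMIs in WT members 80 came from 1 cell, leaving 89.3 CPM without it. Postn was also lower in the other knockout tumour cells, at 9.09 CPM against 44.6 CPM. The WT library held 2623 fibroblast-gate cells and the knockout library 77, and their part in the Postn levels was not tested.

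Among single tumour cells thinned to 5000 UMIs, the genes most alike in level to each rule gene had weak rank correlations, given as a description over 6232 knockout and 3173 WT cells that share libraries and depth. For Dmp1 they were Pdgfrb (Spearman rho 0.25 in the knockout library, 0.18 in WT), Col6a2 (0.26 and 0.16) and Mgp (0.19 and 0.21). For Id3 they were Itm2b, Junb and Jun, with rho between 0.21 and 0.25. For Hes1 they were Junb, Nupr1 and Fn1, and for Pla2g7 Itm2b, Fn1 and Mgp. For Slpi, with few UMIs, they were Col3a1, Cp and Serpinf1, at 0.16 or less. Between rule genes, Hes1 and Id3 had 0.27 in the knockout library and 0.20 in WT.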

How the data were processed

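Cells came from tumours of 4 pooled mice per library, 1 library per genotype. The authors deposited whole UMI counts, genes by barcodes, with no normalisation per the files' own values; Cell Ranger 2.1.1 and the mm10 build are named in the submitters' processing notes. Every listed gene reached at least 4 UMIs in a barcode. The table's total row and sum column were dropped and duplicated symbols summed. Members and gene lists were chosen with earlier results of these data known.

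Counts were summed over members and over other tumour cells per library and given as CPM, with log2 ratios and exact conditional binomial 95% intervals; levels carry Poisson and shares Clopper-Pearson intervals, all for counting error only. No test was made. Named genes were the 12 per direction whose interval bound nearest 0, in the weaker library, was largest, at 50 CPM or more and without rule, gate, mitochondrial and predicted genes; 6 per direction between genotypes at 100 CPM; and up to 4 per list. Clusters used 2000 variable genes, 30 components, 20 neighbours and Leiden resolution 1. Doublets were scored and kept: the caller at 0.3 marked 0.286% of knockout barcodes, so it did not work there, and 1.69% of WT barcodes. The calculations were tested on simulated data. scanpy 1.11.5, leidenalg 0.10.2 and scikit-learn 1.9.0 were run under Python 3.11.15, with scipy 1.17.1, matplotlib 3.10.9, pandas 2.3.3 and numpy 2.4.6.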

Additional observations from a re-analysis of the deposited data

Results flagged for a closer look

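In 3 gene lists the members stood on opposite sides of the other tumour cells in the 2 libraries, with 1 median past 1.5-fold; the difference between libraries was not tested, and each library is 1 sample. The median log2 ratio of members over others for G2/M genes was -1.24 in the knockout library and 0.13 in WT. For S phase genes it was -0.78 in the knockout library and 0.040 in WT, and the sign of both WT values depended on the setting. For keratins and epithelial genes it was -0.17 in the knockout library and 0.90 in WT, and the WT value was -0.083 without the low-depth cluster led by Ly6d, Krt19 and Epcam, which held 12 of the 134 WT members; the knockout value kept its sign in 14 of 17 alternatives.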

How the results depend on the processing

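The members' share in the knockout library over that in WT was 3.64; over 13 alternatives it ran from 2.86 to 4.37, with 2.86 for the top 20% and 2.90 at 5000 UMIs per cell. With the top 10% taken within each library it is equal by construction and has no value. All 10 ratios of left-out rule genes stayed past 1.5-fold in 17 alternatives. The 162 genes higher and 47 lower in both libraries, of 2451 tested, became 776 and 248 of 8616 with no level minimum, and 59 and 14 of 2451 at 2-fold. Without the 20% of cells highest in immediate early genes, an alternative chosen after seeing the data, they were 79 and 15 of 2360. Alternatives that left cells out chose the members anew among the cells that remained. Genes lower numbered 84 of 2468 for the top 5% and 20 of 2412 for the top 20%. The cause was not tested beyond the smaller or larger set of genes or cells that each alternative takes by construction. Other alternatives, among them size factors by median of ratios, depth weighting, a strict gate, each gene scaled to its mean and a split of the UMIs, kept both counts within 1.5 times. The removal of cells with a doublet score above 0.3 did so too. It left 10123 of 10154 tumour cells, so it could hardly change the counts and says little about doublets. All 48 values of the 24 named genes kept their sign in 17 alternatives, but over these alternatives 283 of their values left the counting interval of the reported value and 533 stayed in it. Of the list medians 184 moved by more than the gap between the libraries, 665 by no more, and 1 reversed. The one list median past 1.5-fold that changed sign was that of keratins and epithelial genes in WT, at -0.083 without the Ly6d, Krt19 and Epcam cluster. The alternatives on the highest doublet scores, on clusters and on mural genes were also chosen after seeing the data. No paired analysis was possible because each genotype had 1 library.

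The WT members are only 134 cells, so their low genes rest on few UMIs (8 for Slpi in cells chosen without it) and depth limits what can be seen. Intervals cover counting error, not variation between mice. Genes under 4 UMIs in every barcode were not analysed here. The sources used here do not name the annotation release.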
